A study of Mus musculus with 18 samples.

Results

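Gdf15, which encodes a secreted stress cytokine of the TGF-β superfamily, was followed together with 9 genes that are commonly read as output of the integrated stress response, namely Atf4, Ddit3, Atf3, Ppp1r15a, Trib3, Chac1, Asns, Sesn2 and Ddit4. The 10 genes were chosen by name from 18668 gene symbols in the deposited table, and all 10 were detected well enough to be tested. The 18 RNA libraries were made from BMDM, that is, macrophages differentiated in culture with M-CSF out of C57BL6 mouse bone marrow. The cells lacked Apoe in every group, either alone (Apoe-/-) or together with Treml4 (Apoe-/-/Treml4-/-, DKO), so that no group was wild type. Cells of each genotype received vehicle (untreated) or oxidized low-density lipoprotein (oxLDL) at 10 or 60 µg/ml (oxLDL 10 and oxLDL 60), with 3 biological replicates in each of the 6 groups. The exposure is given as 16 h in the series text and as 24 h in the study's methods, 1 treatment label also mentions LPS, and neither the age and sex of the mice nor whether a replicate was 1 mouse is given in the sources used here.

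The integrated stress response starts when a kinase that senses a particular stress (PERK in the endoplasmic reticulum, GCN2 for amino acid shortage, PKR for double-stranded RNA, HRI for haem and mitochondrial stress) phosphorylates the translation factor eIF2α. General protein synthesis then falls while translation of the Atf4 mRNA rises, and ATF4, often with CHOP (the product of Ddit3) and C/EBP partners, induces genes for amino acid supply, redox balance and feedback on the pathway. In macrophages, oxidized lipids and cholesterol loading are known to engage this response, and GDF15 is one of its secreted products. Because ATF4 and CHOP act as proteins and eIF2α by phosphorylation, mRNA levels show only the transcriptional side of the pathway.

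The composite site that ATF4 binds with a C/EBP partner has the letters TGATGNAA, and these letters were searched on both strands in RefSeq promoters (GRCm38.p6, 250 bases before to 50 bases after each start). Of the 10 genes, 4 held a match, namely Atf3, Chac1, Trib3 and Asns, while 3.91% of 32544 mouse promoters did. The matches are shown because they are where the letters of this site lie in the genes followed here. Each sequence reads 5′ to 3′ on the strand of the gene, 30 bases long, with the matched letters in capitals.
Atf3, chr1:191183425-191183454, minus strand, positions -121 to -92 from the start: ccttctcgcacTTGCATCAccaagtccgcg
Chac1, chr2:119351038-119351067, plus strand, positions -204 to -175: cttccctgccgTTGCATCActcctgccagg
Trib3, chr2:152344028-152344057, minus strand, positions 4 to 33: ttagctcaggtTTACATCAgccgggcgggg
Asns, chr6:7693214-7693243, minus strand, positions -34 to -5: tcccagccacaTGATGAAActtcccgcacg
Atf3 and Chac1 carried the same 8 letters, in reverse complement relative to the gene. The palindromic cAMP response element TGACGTCA, which ATF and CREB dimers bind, was found in Ppp1r15a alone among the 10 genes and in 1.8% of all promoters.
Ppp1r15a, chr7:45526262-45526291, minus strand, positions -23 to 7: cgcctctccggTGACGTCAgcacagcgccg
The antioxidant response element (TGACNNNGC) matched in Asns, Sesn2 and Ppp1r15a, against 12.4% of all promoters, and the core of the hypoxia response element (ACGTG) in Gdf15, Ddit3, Asns, Ddit4 and Ppp1r15a, against 19.7%. Gdf15 had 2 promoters in this search and matched in promoter 2 alone, whereas the shares count single promoters. These matches describe letters within a short window. They show no binding, and no match says only that the letters are not in this window.

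In the mm10 assembly (GENCODE M21 annotation) Gdf15 lies at chr8:70629393-70632456 on the minus strand, Atf4 at chr15:80255184-80257541 on the plus strand, and Ddit3 at chr10:127290774-127296288 on the plus strand. Atf3 lies at chr1:191170296-191218039, Ppp1r15a at chr7:45522916-45526268, Trib3 at chr2:152337422-152344032, Asns at chr6:7675169-7693254, Sesn2 at chr4:132492032-132510501 and Ddit4 at chr10:59949669-59951834, all on the minus strand, and Chac1 at chr2:119351229-119354381 on the plus strand. All are protein coding, and RPKM counts reads over their exons. The ends of these spans can differ from the RefSeq starts used for the promoters. The Atf3 site printed above, for example, lies well inside the span given here. Ddit3 overlaps Mars, Ppp1r15a overlaps Tulp2 and Atf3 overlaps Gm24748 on the opposite strand, and Sesn2 overlaps Gm12981 on the same strand. Per the labels the libraries were stranded, but whether the counting used strand is not given in the sources used here, so reads of these 4 genes and their overlapping partners may not be fully separated.

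Recovered depth was 39.7 to 54.2 M reads per library, estimated from the steps in low RPKM values (reads per kilobase of exon per M reads). The smallest values of the 10 genes correspond to about 39 reads for Ddit4, 40 for Chac1 and 87 for Gdf15, a counting error of 16.1%, 15.9% and 10.7%, respectively, whereas Atf3 and Atf4 never fell below about 7444 and 8102 reads. Treml4 stood at 1.86 to 8.39 RPKM in Apoe-/- libraries and at 0 to 0.012 RPKM in DKO libraries as labelled, and some Apoe reads were present in every library (0.349 to 4.13 RPKM). The 7 macrophage markers were present throughout, in sum at 8614 to 11352 RPKM in untreated and 6423 to 8353 RPKM in oxLDL 60 Apoe-/- BMDM, and at 8058 to 10530 and 5458 to 7042 RPKM in DKO. Most of this sum was Lyz2, which fell by 0.61 and 0.71 on the log2 scale. Of the 7 markers 3 fell and 1 rose in Apoe-/- and 2 fell and 1 rose in DKO. For all tested genes the shares were 6.78% lower and 7.13% higher in Apoe-/-, and 7.31% and 4.87% in DKO. Mertk was the marker that rose (0.68 and 0.70), and Cd68 had 0.42 and 0.29, under 1.4-fold. The part of these changes in the oxLDL 60 results below was not tested. Summed markers of dendritic cells, lymphocytes, and erythroid or mast cells were at most 0.317, 0.113 and 0.346 RPKM, with 4 of 5, 6 of 6 and 5 of 6 markers under the limit for testing. Within each group 1 library held Xist, the X-inactivation RNA of female cells (7.25 to 14.5 RPKM, at most 0.069 RPKM elsewhere), and hardly any Y-linked RNA: replicate 2 of each Apoe-/- group and replicate 3 of each DKO group. These 6 Xist-positive libraries also held the lowest summed stromal markers of their group, at 0.55 to 1.23 against 3.58 to 14.2 RPKM, and the lowest summed neutrophil markers, at 29.8 to 37.3 against 38.9 to 81.6 RPKM. In bulk RNA, fewer cells of a type and less RNA per cell cannot be told apart. Several of the 10 genes followed this split, as described below, and results that rest on these libraries are given with and without them.

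**Figure D1:**
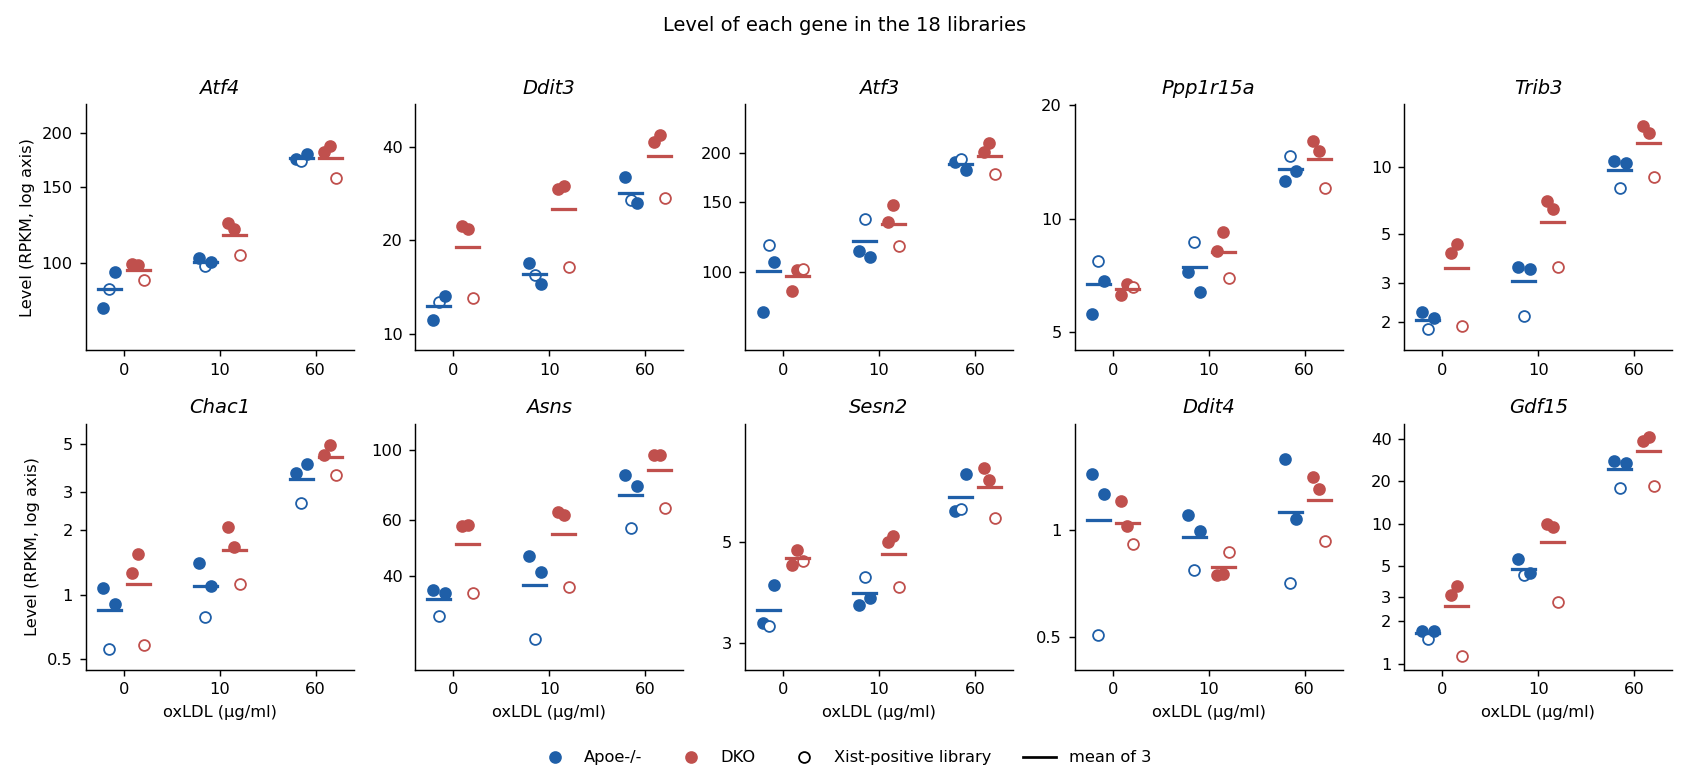
Level of the 10 genes (RPKM, log axis) in each of the 18 libraries against the amount of oxLDL, with Apoe-/- in blue and DKO in red, bars for the mean of 3 replicates, and open circles for Xist-positive libraries. At oxLDL 60 every gene but Ddit4 lay above all untreated libraries of its genotype, and Gdf15 spanned 1.13 to 41.1 RPKM.

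With oxLDL 60, 9 of the 10 genes rose in both genotypes and Ddit4 did not pass the test. Gdf15 changed most, by 13.8-fold in Apoe-/- and 12.8-fold in DKO BMDM, followed by Trib3 and Chac1 (3.72- to 4.52-fold), while the transcription factor genes Atf4, Ddit3 and Atf3 rose by 1.81- to 2.29-fold. A gene was called when limma gave a Benjamini-Hochberg adjusted p under 0.05 and a change of at least 1.4-fold on the log2(RPKM + 0.1) scale. By this rule 7.13% of 12838 tested genes were called higher in Apoe-/- and 4.87% in DKO. The 9 genes also had every oxLDL 60 library above every untreated library of their genotype, which held for 25.8% of tested genes in Apoe-/- and 14.3% in DKO. The median log2 fold change of the 10 genes was 1.05 in Apoe-/- and 1.00 in DKO, against 0.06 and -0.06 over all tested genes.

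Among the transcription factors, Atf4, the central effector of the pathway, was already abundant. In the 3 untreated Apoe-/- libraries it stood at 78.6, 87.3 and 95.3 RPKM (replicates 1, 2 and 3, here and below). With oxLDL 10 these became 103, 98.6 and 101 RPKM, and with oxLDL 60 they reached 174, 173 and 179 RPKM. The DKO libraries held 99.6, 99.0 and 91.4 RPKM untreated, then 124, 120 and 105 RPKM with oxLDL 10, and finally 181, 187 and 158 RPKM with oxLDL 60. The groups at oxLDL 60 were narrow and well apart from the rest, and the log2 fold change against untreated was 1.01 ± 0.08 (SE) in Apoe-/- (adjusted p = 4.35e-08, limma) and 0.85 ± 0.08 in DKO (adjusted p = 3.82e-07). Because translation of Atf4 is the regulated step, this gives the template and not the protein.

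Ddit3, which encodes CHOP, a factor linked to prolonged stress and apoptosis, went from 11.1, 12.7 and 13.2 RPKM in untreated Apoe-/- BMDM to 31.9, 26.9 and 26.4 RPKM with oxLDL 60. In DKO it went from 22.2, 21.8 and 13.0 to 41.3, 43.8 and 27.3 RPKM. Replicate 3 was the lowest of both DKO groups, and treated and untreated groups did not overlap within a genotype. The log2 fold change was 1.20 ± 0.23 in Apoe-/- (adjusted p = 0.000626) and 0.98 ± 0.23 in DKO (adjusted p = 0.00355).

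Atf3, an immediate stress factor that often represses inflammatory genes, had the highest mean of the 10 genes in each group. Untreated Apoe-/- libraries held 79.1, 117 and 106 RPKM, against 190, 193 and 181 RPKM with oxLDL 60. Untreated DKO libraries held 89.7, 101 and 102 RPKM, against 202, 212 and 177 RPKM. The rise was 0.92 ± 0.13 on the log2 scale in Apoe-/- (adjusted p = 2.61e-05) and 1.01 ± 0.13 in DKO (adjusted p = 1.04e-05). Ppp1r15a, which encodes GADD34, the inducible phosphatase subunit that reverses eIF2α phosphorylation, went from 5.60, 7.73 and 6.82 to 12.6, 14.7 and 13.4 RPKM in Apoe-/- and from 6.29, 6.70 and 6.57 to 16.0, 15.1 and 12.1 RPKM in DKO. Its log2 fold changes of 1.01 ± 0.14 and 1.12 ± 0.14 (adjusted p = 2.22e-05 and 7.86e-06) were close to those of Atf3. No library of either gene at oxLDL 60 overlapped the untreated range.

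Trib3 encodes a pseudokinase that binds ATF4 and CHOP and restrains them, and Chac1 an enzyme that degrades glutathione. Trib3 went from 2.22, 1.87 and 2.08 RPKM in untreated Apoe-/- BMDM to 10.7, 8.06 and 10.4 RPKM with oxLDL 60, while the DKO values were 4.12, 4.49 and 1.94 RPKM untreated and 15.3, 14.3 and 9.07 RPKM with oxLDL 60. Chac1 went from 1.08, 0.56 and 0.90 to 3.67, 2.66 and 4.02 RPKM in Apoe-/-, while DKO libraries had 1.26, 1.54 and 0.58 RPKM untreated, rising to 4.44, 4.96 and 3.59 RPKM. The lowest value of each of these groups came from the Xist-positive library. Trib3 rose by 2.18 ± 0.30 and 1.90 ± 0.30 on the log2 scale (adjusted p = 2.93e-05 in Apoe-/- and 0.000135 in DKO) and Chac1 by 1.93 ± 0.31 and 1.93 ± 0.31 (adjusted p = 0.000124 and 0.000131).

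Asns, the asparagine synthetase gene and a classical amino acid response target, went from 36.1, 29.8 and 35.3 RPKM in untreated Apoe-/- to 83.2, 56.6 and 76.9 RPKM with oxLDL 60. In DKO it went from 57.7, 57.8 and 35.4 to 96.6, 96.8 and 65.4 RPKM. The lowest library of each group was again the Xist-positive one. The log2 fold change of 1.08 ± 0.26 in Apoe-/- (adjusted p = 0.00374) and 0.79 ± 0.26 in DKO (adjusted p = 0.0304) passed the test, although the DKO call was lost on leaving out DKO oxLDL 60 replicate 1 or 2 or untreated replicate 3 (adjusted p = 0.103, 0.107 and 0.15).

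Sesn2, a leucine sensor that restrains mTORC1, rose from 3.32, 3.27 and 4.02 to 5.84, 5.90 and 7.06 RPKM in Apoe-/-, and from 4.46, 4.81 and 4.55 to 7.28, 6.86 and 5.66 RPKM in DKO. The log2 fold change was 0.81 ± 0.12 (adjusted p = 4.86e-05) and 0.50 ± 0.12 (adjusted p = 0.0039), and in DKO the 1.42-fold change lay just above the limit of 1.4-fold. The DKO call was lost on leaving out oxLDL 60 replicate 1 or 2 or untreated replicate 1, when the log2 fold change was 0.43, 0.47 and 0.48. Ddit4, which encodes REDD1, another inhibitor of mTORC1, was low and scattered. In Apoe-/- its values were 1.43, 0.51 and 1.25 RPKM untreated and 1.58, 0.71 and 1.07 RPKM with oxLDL 60. The DKO values were 1.20, 1.02 and 0.91 RPKM untreated, against 1.4, 1.3 and 0.93 RPKM. Its groups overlapped in both genotypes. The 95% intervals of the log2 fold change, -0.50 to 0.73 in Apoe-/- and -0.44 to 0.80 in DKO, include the sizes of change seen for Sesn2 in DKO (adjusted p = 0.815 and 0.709).

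Gdf15 itself was low in untreated Apoe-/- libraries (1.70, 1.51 and 1.72 RPKM), higher with oxLDL 10 (5.55, 4.26 and 4.40 RPKM) and highest with oxLDL 60 (28.1, 18.0 and 27.0 RPKM). The DKO libraries went from 3.08, 3.58 and 1.13 RPKM untreated through 9.86, 9.45 and 2.77 RPKM to 38.9, 41.1 and 18.4 RPKM. Ordered by mean, the 6 groups were untreated Apoe-/- (1.65 ± 0.12 RPKM, SD, n = 3), untreated DKO (2.59 ± 1.29), oxLDL 10 Apoe-/- (4.74 ± 0.71), oxLDL 10 DKO (7.36 ± 3.98), oxLDL 60 Apoe-/- (24.4 ± 5.54) and oxLDL 60 DKO (32.8 ± 12.5). The 2 genotypes overlapped at each amount of oxLDL, whereas the step from untreated DKO to oxLDL 10 Apoe-/- and that from oxLDL 10 DKO to oxLDL 60 Apoe-/- separated every library. These 2 steps change genotype and amount together. Within DKO, untreated and oxLDL 10 libraries overlapped, as oxLDL 10 replicate 3 (2.77 RPKM) lay below untreated replicates 1 and 2 (3.08 and 3.58 RPKM). The log2 fold change from untreated to oxLDL 60 was 3.78 ± 0.44 in Apoe-/- (adjusted p = 4.49e-06, limma) and 3.67 ± 0.44 in DKO (adjusted p = 7.19e-06). Permuting the libraries of the 2 groups in full (exact test, two-sided) gave p = 0.1 in each genotype, the smallest value that 3 against 3 libraries allow.

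**Figure D2:**
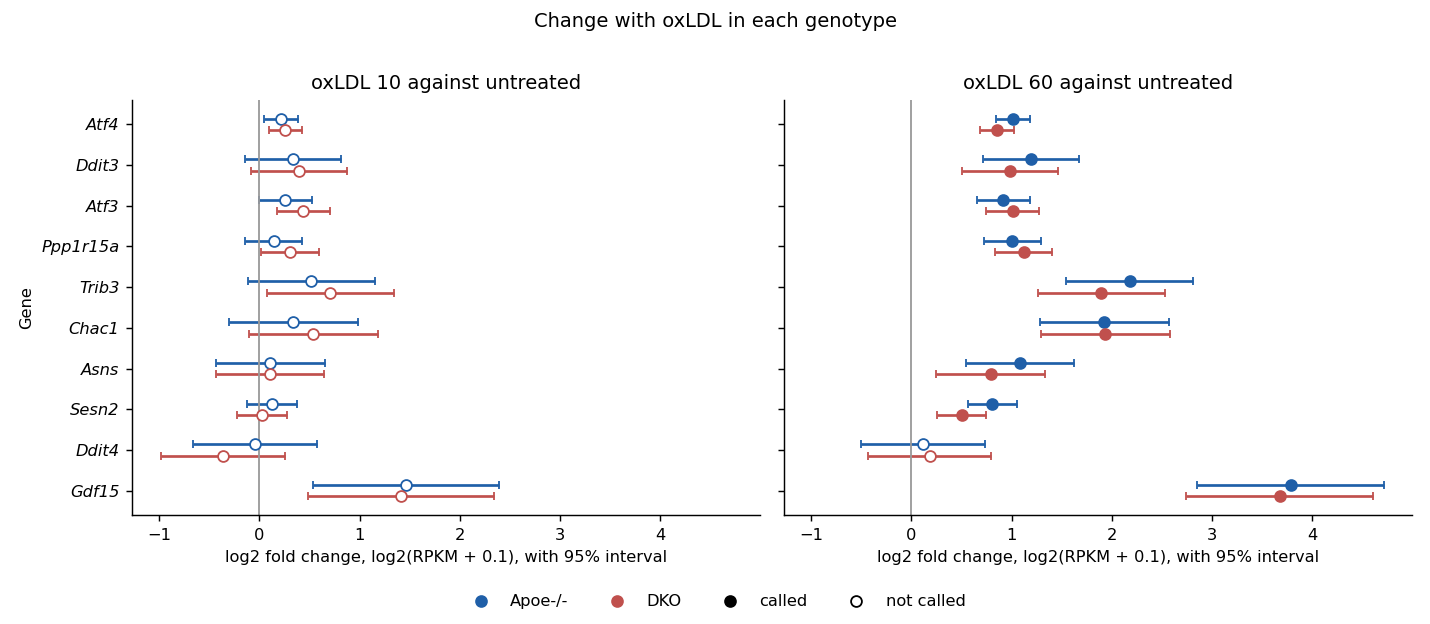
Change of each gene with oxLDL 10 (left) and oxLDL 60 (right) against untreated BMDM, as log2 fold change of RPKM + 0.1 with 95% intervals from limma, in Apoe-/- (blue) and DKO (red); filled circles passed the test. At oxLDL 60 Gdf15 stood apart at 3.78 and 3.67, whereas at oxLDL 10 no gene was called in this fit.

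In the fit without pairing none of the 10 genes was called with oxLDL 10 by limma, and 2.79% and 2.26% of all tested genes were called in either direction. At an unadjusted p under 0.05 there were 2 of the 10 in Apoe-/- and 5 in DKO, against 22.4% and 13.2% of all tested genes. Gdf15 had the largest difference, with a log2 fold change of 1.46 ± 0.44 in Apoe-/- (adjusted p = 0.0548) and 1.42 ± 0.44 in DKO (adjusted p = 0.0941). This SE rests on the spread within all 6 groups, and not on the replicates of 1 genotype alone. Within a genotype, libraries with the same replicate number deviated from their group means together, so the replicate number was also fitted as a block. With the block, Gdf15 was called in both genotypes at the same log2 fold changes, with SE 0.12 and adjusted p = 1.65e-06 in Apoe-/- and 1.79e-06 in DKO. Trib3 was called in both as well (0.52 ± 0.10, adjusted p = 0.00199, and 0.71 ± 0.10, adjusted p = 0.000169), and Chac1 in DKO (0.54 ± 0.14, adjusted p = 0.022). The block called 2 of the 10 genes in Apoe-/- and 3 in DKO, against 4.11% and 3.5% of all tested genes. Without the block, leaving out the Xist-positive DKO oxLDL 10 replicate 3 also gave calls for Gdf15 (2.00, adjusted p = 0.0068) and Atf3 (0.53, adjusted p = 0.035) in DKO.

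Followed within each replicate number, Gdf15 rose 2.45- to 3.26-fold from untreated to oxLDL 10 in 6 of 6 replicates and 11.5- to 16.5-fold from untreated to oxLDL 60. In DKO these ratios differed less between replicates (2.45 to 3.21 and 11.5 to 16.3) than the untreated levels did (1.13 to 3.58 RPKM). In Apoe-/- they did not, at 2.55 to 3.26 and 11.9 to 16.5 against untreated levels of 1.51 to 1.72 RPKM. The DKO Xist-positive replicate had the lowest Gdf15 of its genotype at each amount, yet its 2.45-fold and 16.3-fold ratios lay at or near the ends of the same ranges. Atf4, Ddit3, Atf3, Chac1 and Trib3 were also higher with oxLDL 10 than untreated in 6 of 6 replicates, by at most 1.91-fold, while Ddit4 was higher in 1 of 6.

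From oxLDL 10 to oxLDL 60, 9 genes rose in Apoe-/- (2.91% of all tested genes were called higher) and 6 in DKO (1.92%), with Gdf15 again first at log2 fold changes of 2.32 ± 0.44 (adjusted p = 0.0016) and 2.26 ± 0.44 (adjusted p = 0.002). The genes not called in DKO were Asns, Ddit3, Sesn2 and Ddit4. With the replicate block 9 were called in each genotype, against 7.91% and 7% of all tested genes, and in DKO these included Ddit4 (0.55 ± 0.16, adjusted p = 0.0207) but not Sesn2, whose change stayed under 1.4-fold. Leaving out 1 library moved the unpaired count between 7 and 9 genes in Apoe-/- and between 4 and 9 in DKO. Trib3 lost its DKO call without oxLDL 10 replicate 3 or oxLDL 60 replicate 1 or 2 (adjusted p = 0.0617, 0.0555 and 0.053), and rescaling by the median ratio gave 9 calls in DKO. The 2 comparisons of each genotype share the oxLDL 60 libraries, so they are not independent of each other.

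**Figure D3:**
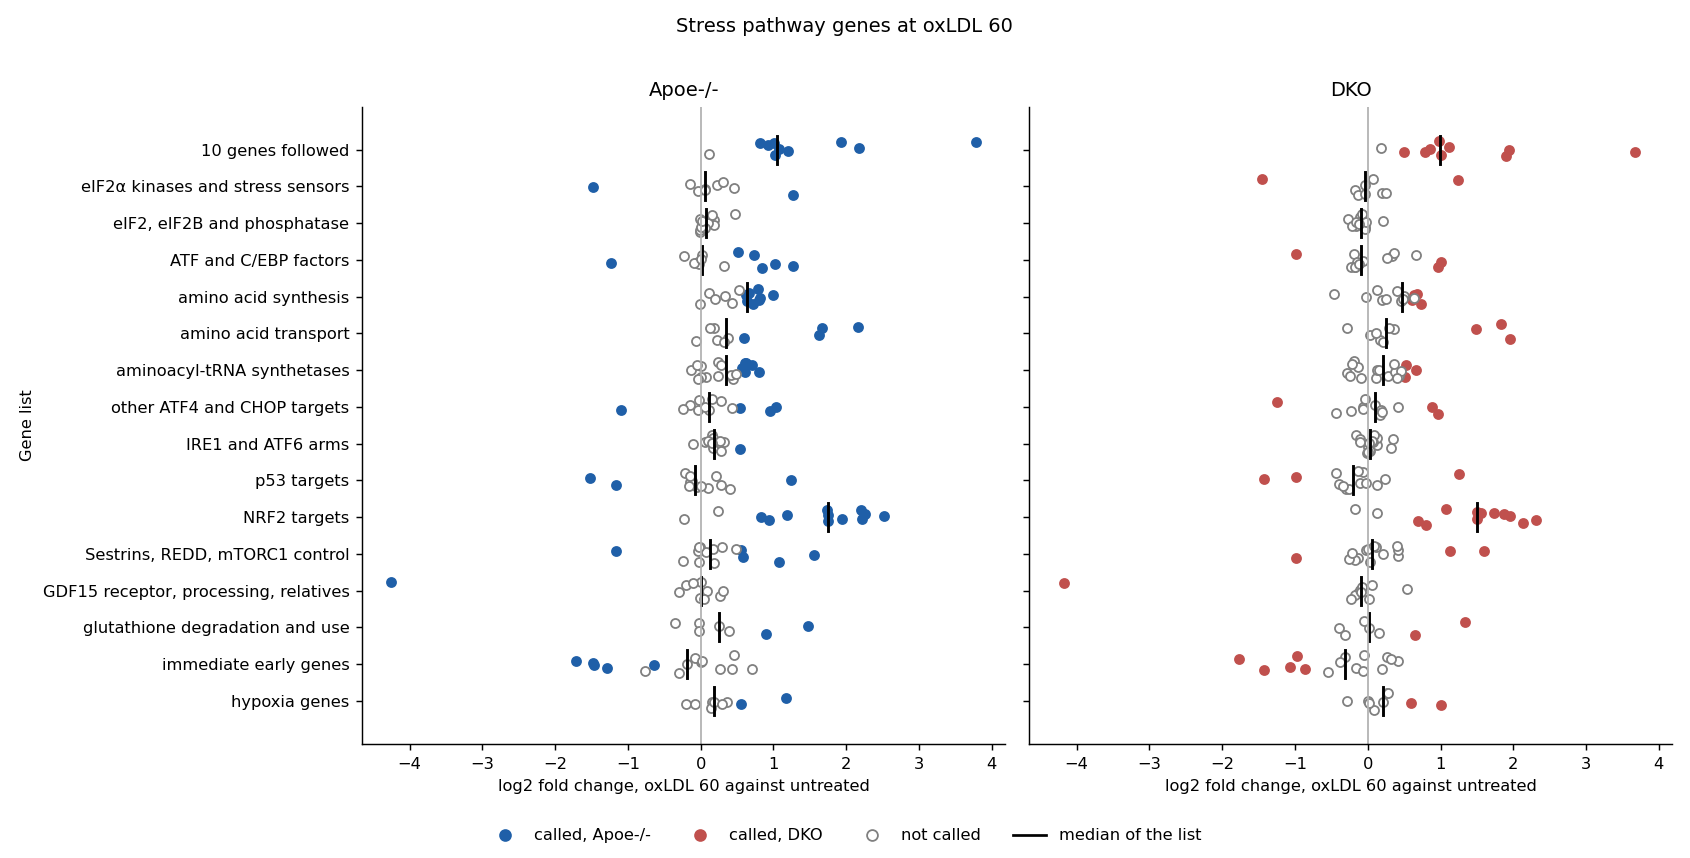
Log2 fold change at oxLDL 60 against untreated for every tested gene of the pathway lists in Apoe-/- (left) and DKO (right); filled circles were called, open circles were not, and black bars mark the list median. NRF2 targets moved furthest as a list (median 1.75 and 1.51), and the eIF2 and eIF2B genes lay around 0.

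The eIF2α kinases and stress sensors act upstream of the 10 genes. At oxLDL 60, 7.13% of all tested genes were called higher and 6.78% lower in Apoe-/-, and 4.87% and 7.31% in DKO. Of 9 kinase and sensor genes, 1 was called higher and 1 lower in each genotype. The higher one was Impact, an inhibitor of GCN2 activation, which went from 9.31 ± 0.93 to 22.5 ± 1.23 RPKM in Apoe-/- and from 9.36 ± 0.77 to 22.3 ± 1.67 RPKM in DKO. The lower one was Eif2ak2 (PKR), also an interferon-induced gene, which fell from 26.9 ± 3.90 to 9.55 ± 0.69 RPKM and from 27.4 ± 1.35 to 9.90 ± 0.35 RPKM. The kinase genes Eif2ak1 (HRI), Eif2ak3 (PERK) and Eif2ak4 (GCN2) were not called, with log2 fold changes of -0.15, 0.23 and 0.46 in Apoe-/- and -0.18, 0.19 and 0.25 in DKO. Eif2ak4 in Apoe-/- passed on adjusted p (0.000246, limma) and missed the limit of 1.4-fold. None of 12 genes for eIF2, eIF2B and the phosphatase was called, and the most abundant of them, the catalytic subunit gene Ppp1ca, had log2 fold changes of 0.15 and -0.03. Ppp1r15b, the constitutive partner of Ppp1r15a, was at 19.3 ± 1.73 and 20.0 ± 0.55 RPKM in untreated and oxLDL 60 Apoe-/- BMDM.

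Of 14 other ATF and C/EBP factor genes, 5 rose and 1 fell in Apoe-/- and 2 rose and 1 fell in DKO. The shares of all tested genes were 7.13% higher and 6.78% lower in Apoe-/-, and 4.87% and 7.31% in DKO. Cebpa rose from 15.4 ± 2.13 to 37.0 ± 1.18 RPKM in Apoe-/- and from 17.5 ± 0.14 to 35.3 ± 2.90 RPKM in DKO, and Batf3 by 1.02 and 0.97 on the log2 scale. Cebpd fell by 1.23 in Apoe-/- and 0.99 in DKO on the log2 scale. Atf5, a paralog of Atf4 that is likewise controlled by translation, rose by 0.84 in Apoe-/- (adjusted p = 0.013) and had a log2 fold change of 0.66 in DKO (adjusted p = 0.0504). The ATF4 partners Cebpb (-0.09 and -0.18) and Cebpg (0.32 and 0.26) were not called in either genotype. Here and in the lists below, a call in Apoe-/- and not in DKO is not by itself a difference between genotypes, for which the interaction is given further below.

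Many amino acid genes are known ATF4 targets. Of 14 tested amino acid synthesis genes other than Asns, 8 rose and none fell in Apoe-/- and 4 rose in DKO. For this and the next 2 lists, 7.13% and 4.87% of all tested genes were called higher in Apoe-/- and DKO. Mthfd2, of mitochondrial folate metabolism, went from 32.2 ± 1.17 to 65.0 ± 9.63 RPKM in Apoe-/- and from 45.9 ± 8.39 to 73.1 ± 10.1 RPKM in DKO. Pck2 rose by 0.82 and 0.73 and Aldh18a1, of proline synthesis, by 0.80 and 0.61 on the log2 scale. Of 10 tested amino acid transporters, 4 rose in Apoe-/- and 3 in DKO, led by the glycine transporter Slc6a9 (0.59 ± 0.06 to 3.02 ± 0.39 RPKM, and 0.72 ± 0.08 to 3.11 ± 0.52 RPKM in DKO). The cystine transporter Slc7a11, which both ATF4 and NRF2 can induce, rose by 1.67 and 1.83 and Slc1a4 by 1.62 and 1.49. Of 18 aminoacyl-tRNA synthetases, 6 rose in Apoe-/- and 3 in DKO, among them Cars (0.81 and 0.66) and Sars (0.71 and 0.53). Nars was called in Apoe-/- (0.63, adjusted p = 0.000495) and not in DKO (0.46, adjusted p = 0.00693, under 1.4-fold).

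Of 13 other tested ATF4 and CHOP targets, 3 rose and 1 fell in Apoe-/- and 2 rose and 1 fell in DKO. All tested genes were called higher at 7.13% and lower at 6.78% in Apoe-/-, and at 4.87% and 7.31% in DKO. Sqstm1, the autophagy receptor p62, went from 392 ± 31.7 to 803 ± 70.7 RPKM in Apoe-/- and from 442 ± 51.1 to 870 ± 143 RPKM in DKO. Eif4ebp1, a translation repressor, rose by 0.95 and 0.89 on the log2 scale, and Map1lc3b had 0.54 (called) and 0.42 (not called). Trib1, a paralog of Trib3, moved the other way and fell by 1.10 in Apoe-/- and by 1.24 in DKO on the log2 scale. Trib2 was under the limit for testing, with at most 0.09 RPKM. Of 7 tested genes for the degradation and use of glutathione besides Chac1, 2 rose in each genotype, with the glutathione synthetase Gss at 1.48 and 1.34, while Chac2, the constitutive paralog of Chac1, had 0.26 and 0.02 and was not called.

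Genes of the other arms of the unfolded protein response (IRE1 and ATF6) gave 1 call among 15 in Apoe-/-, Dnajb9 at 0.54 (adjusted p = 0.00325), and none in DKO, where Dnajb9 had 0.35 (adjusted p = 0.0505). Neither count exceeded the share of all tested genes called higher, 7.13% in Apoe-/- and 4.87% in DKO. The shares called lower were 6.78% and 7.31%. Of 14 p53 targets, 1 rose (Plk2, 1.24 and 1.25) and 2 fell, Fas (by 1.52 and 1.43) and Sesn1 (by 1.16 and 0.98), in both genotypes. Sesn1 thus fell while its paralog Sesn2 rose, and Sesn3 had means of 1.38 to 1.39 RPKM in untreated and oxLDL 60 BMDM of both genotypes, with a log2 fold change of -0.02 in each. Among 16 genes of the sestrin and REDD families and mTORC1 control, 4 rose and 1 fell in Apoe-/- and 2 rose and 1 fell in DKO. Rragd, a Rag GTPase, rose by 1.56 and 1.6, and Ddit4l, the paralog of Ddit4, by 1.08 and 1.13 from means of 0.10 and 0.06 RPKM. Rptor was called in Apoe-/- (0.58) and in DKO passed on adjusted p but not on size (0.40, adjusted p = 0.000551). Castor1 was called in Apoe-/- (0.55) and had 0.41 in DKO (adjusted p = 0.0844). Neither had a called interaction (adjusted p = 0.545 and 0.85).

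NRF2 targets, the antioxidant genes that oxidized lipids also induce, rose at 11 of 13 in each genotype with oxLDL 60 and at 9 of 13 with oxLDL 10. With oxLDL 60, 7.13% of all tested genes were called higher in Apoe-/- and 4.87% in DKO. With oxLDL 10 these were 96 and 73 of 12838 genes. Srxn1 went from 79.0 ± 6.38 to 453 ± 18.1 RPKM and Hmox1 from 523 ± 55.5 to 2504 ± 347 RPKM in Apoe-/-, with close values in DKO (437 ± 45.1 and 2481 ± 402 RPKM at oxLDL 60). Nqo1 rose by 2.22 and 1.95 on the log2 scale. Of 15 immediate early genes, 5 fell in each genotype with oxLDL 60, including Fos (by 1.71 and 1.77), Junb (by 1.47 and 1.43) and Zfp36 (by 1.29 and 1.07). The shares of all tested genes called lower were 6.78% in Apoe-/- and 7.31% in DKO. Of 9 hypoxia genes 2 rose in each genotype, among them Ndrg1 (0.55 and 0.59).

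For GDF15 signalling itself, the receptor gene Gfral was not analysed here and its coreceptor gene Ret was under the limit for testing (at most 0.08 RPKM). Of 10 tested genes for processing enzymes and related TGF-β ligands none rose and 1 fell, Mmp14, a membrane protease able to cleave the GDF15 receptor, from 38.8 ± 8.56 to 1.93 ± 0.30 RPKM in Apoe-/- and from 32.3 ± 6.14 to 1.69 ± 0.38 RPKM in DKO. Over all tested genes 6.78% in Apoe-/- and 7.31% in DKO were called lower. The related TGF-β ligands that could be tested were not called in either genotype.

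Between genotypes, none of the 10 genes was called by limma in untreated BMDM, with oxLDL 10 or with oxLDL 60, where 0.21%, 0.0857% and 0.125% of all tested genes were called. At an unadjusted p under 0.05 there were 4, 4 and 0 of the 10, against 17.3%, 9.75% and 7.88% of all tested genes. The log2 difference of DKO over Apoe-/- was above 0 for 8, 9 and 9 of the 10 genes, and largest for Trib3, at 0.66 ± 0.30 untreated (adjusted p = 0.276), 0.85 ± 0.30 with oxLDL 10 (adjusted p = 0.445) and 0.38 ± 0.30 with oxLDL 60 (adjusted p = 0.767). After rescaling of the libraries by their median ratio, the sign changed for Ddit4 in untreated BMDM and for Atf4 with oxLDL 60. For Gdf15 the difference was 0.48, 0.43 and 0.37 with 95% intervals of -0.45 to 1.41, -0.50 to 1.36 and -0.56 to 1.30, so that a rise of more than 2-fold in DKO lies within the intervals.

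In DKO, Gdf15 was at 3.08 and 3.58 RPKM in untreated replicates 1 and 2 and at 1.13 RPKM in the Xist-positive replicate 3, below all 3 untreated Apoe-/- libraries. Without the Xist-positive libraries, which left 2 in each group, limma called Gdf15, Ddit3, Trib3 and Asns higher in DKO in untreated BMDM and with oxLDL 10, and Gdf15 and Ddit3 with oxLDL 60. All tested genes were then called at 2.4%, 0.857% and 0.576%. Gdf15 differed by 0.91 ± 0.11 (adjusted p = 0.000762), 0.95 ± 0.11 (adjusted p = 0.000856) and 0.54 ± 0.11 (adjusted p = 0.0436) on the log2 scale, and Ddit3 by 0.86, 0.92 and 0.55. Trib3 differed by 0.97, 0.92 and 0.48, the last under 1.4-fold. Atf3, Atf4, Ppp1r15a, Chac1, Sesn2 and Ddit4 were not called. In the same libraries summed neutrophil markers were higher in DKO without overlap, at 67.2 to 81.6 against 40.5 to 46.3 RPKM untreated, 52.4 to 78.9 against 38.9 to 48.1 RPKM with oxLDL 10 and 45.6 to 58.3 against 40.7 to 43.3 RPKM with oxLDL 60. Summed stromal markers were lower in DKO, at 3.8 to 5.3 against 8.73 to 13.5 RPKM untreated, 3.83 to 4.63 against 7.01 to 14.2 RPKM with oxLDL 10 and 3.58 to 3.71 against 7.5 to 13.1 RPKM with oxLDL 60. A sum can be carried by 1 abundant marker. With all 3 libraries a group, the median log2 difference of DKO over Apoe-/- untreated, with oxLDL 10 and with oxLDL 60 was 0.24, 0.32 and 0.0046 for the 6 tested neutrophil or granulocyte precursor markers. For the 4 tested stromal markers it was -0.57, -0.60 and -0.62. The part of any difference in such cells in the genotype difference was not tested. The genotype difference of Gdf15, Ddit3, Trib3 and Asns thus rested on which libraries were kept. With 2 libraries a group the mice behind them cannot be told apart from the genotype. The fit without the Xist-positive libraries had no replicate block, although libraries of the same replicate number deviated from their group means together. It counted such libraries as independent, so its p-values may be too small, and the results at the 3 amounts are not independent of each other.

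**Figure D4:**
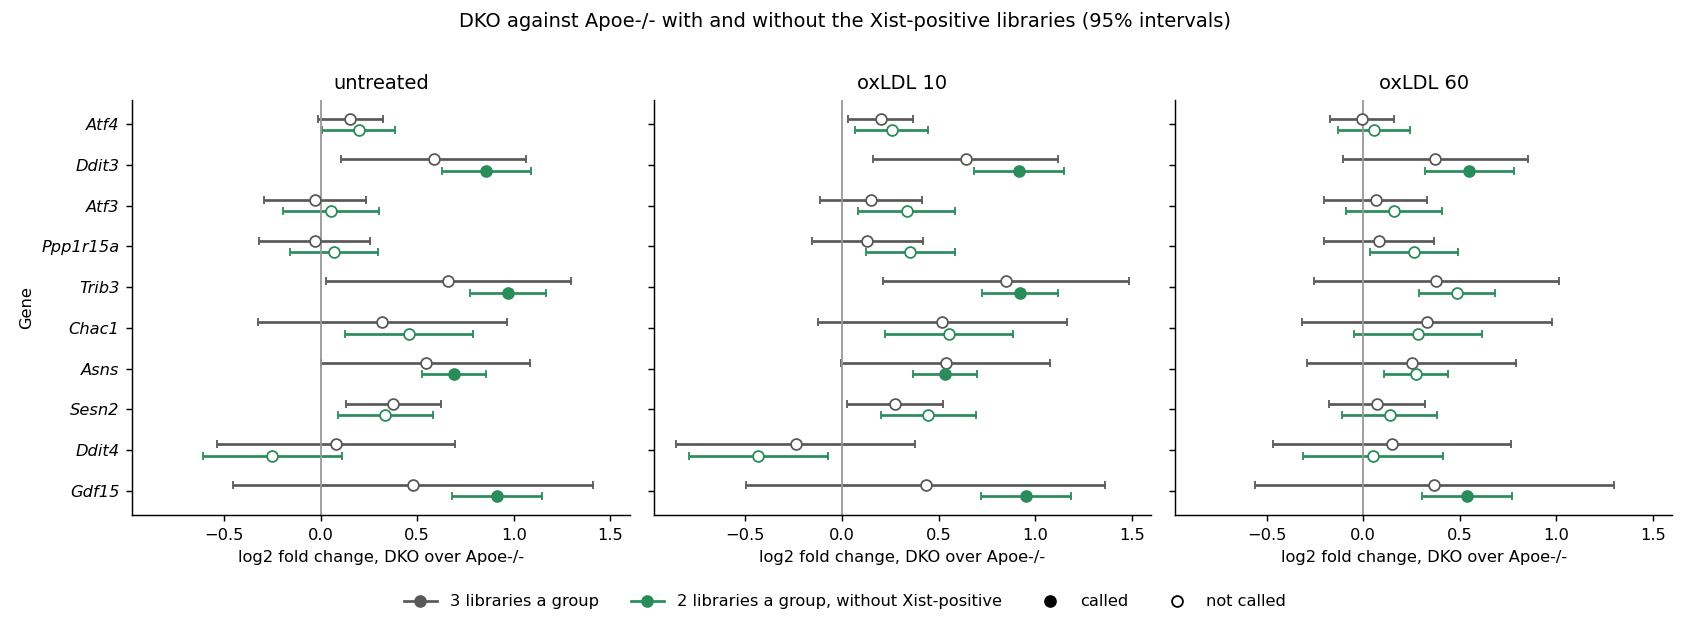
Log2 fold change of DKO over Apoe-/- for each gene in untreated, oxLDL 10 and oxLDL 60 BMDM with 95% intervals, from all 3 libraries a group (grey) and from the 2 that are not Xist-positive (green); filled circles were called. The intervals of Gdf15, Ddit3, Trib3 and Asns narrow and leave 0 without the Xist-positive libraries.

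The interaction of genotype and oxLDL, which asks whether the response differed between genotypes, called none of the 10 genes by limma at oxLDL 60 (0.0156% of all tested genes) or oxLDL 10 (0% of all tested genes), and none had an unadjusted p under 0.05, against 9.78% and 1.92% of all tested genes. For Gdf15 it was -0.11 ± 0.62 at oxLDL 60 with a 95% interval of -1.43 to 1.20. The interval of Atf4 was narrower, at -0.40 to 0.08. With the replicate block the interaction of Gdf15 kept its size with an SE of 0.17 (adjusted p = 0.741), and again none of the 10 was called. In the fit without the block, no tested gene of the pathway lists had a called interaction at oxLDL 60 either. The fewer calls in DKO than in Apoe-/- in several lists are thus no called difference in response, which does not show that the responses were equal.

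Gdf15, Chac1, Trib3 and Asns had their lowest value in the Xist-positive library in 6 of 6 groups, an order that 7.28% of tested genes showed. These libraries are 1 replicate number of each genotype at each amount of oxLDL, so the 6 groups are not independent. The ratio of that library to the mean of the others had a median over the 6 groups of 0.557 for Gdf15, 0.614 for Chac1, 0.612 for Trib3 and 0.645 for Asns, and it ranged for Gdf15 from 0.287 to 0.881. The medians of Ddit3 (0.783) and Ddit4 (0.713) were lower by less, whereas those of Atf4 (0.944), Sesn2 (0.904), Atf3 (1.05) and Ppp1r15a (1.07) were near 1. These medians pool 2 genotypes that differed for some genes. Ddit3 was at 0.92 to 1.04 in Apoe-/- and 0.56 to 0.64 in DKO, and Gdf15 at 0.65 to 0.88 and 0.29 to 0.46. Ppp1r15a was at 1.13 to 1.27 and 0.77 to 1.01, and Atf4 at 0.97 to 1.01 and 0.86 to 0.92. The ratios of the other genes overlapped between genotypes. The same libraries were lowest in stromal and neutrophil markers, as given above, and the part of those cells in this result was not tested.

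The genes also differed in how they varied between libraries of the same treatment. Over deviations of the 18 libraries from their 6 group means, the 10 pairs among Gdf15, Ddit3, Trib3, Asns and Chac1 had Pearson r from 0.68 to 0.96, with 0.96 between Trib3 and Asns and 0.95 between Gdf15 and Ddit3. Atf3 and Ppp1r15a correlated with each other at 0.90 but with these 5 genes at -0.26 to 0.43 and -0.15 to 0.52. Atf4 had r from 0.50 (Chac1) to 0.83 (Ddit3) with the 5 genes, with 0.76 for Gdf15, and 0.56 with Atf3 and 0.57 with Ppp1r15a. Its value with Ddit3 was above the lowest among the 5 genes, so the grouping, read from these coefficients, is not sharp. Sesn2 had its highest r with Atf4 (0.74). These coefficients are descriptions without a p, because libraries of one replicate number are taken to share an origin and 6 of the 18 are the Xist-positive ones.

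**Figure D5:**
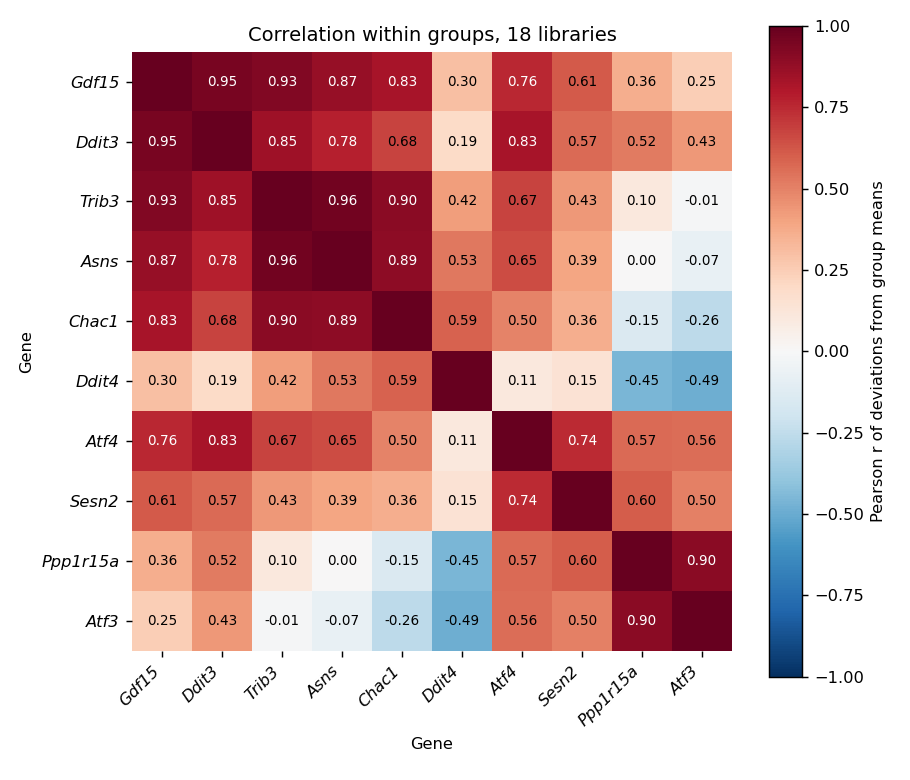
Pearson r between genes over the deviations of log2(RPKM + 0.1) from the group mean in 18 libraries, from -1 (blue) to 1 (red). Gdf15, Ddit3, Trib3, Asns and Chac1 had r of 0.68 to 0.96 with each other, and Atf3 with Ppp1r15a had 0.90. Atf4 reached 0.83 with Ddit3.

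Over all 18 libraries, treatment included, Gdf15 was followed most closely by Samd8 (r = 0.987), Rps6ka2, Galnt6, Hilpda, Gsta3, Afp, Txnrd1, Ttc12, Plpbp and Zdhhc18 (0.982) among 10753 genes with a mean of at least 0.5 RPKM. Txnrd1, the thioredoxin reductase gene and an NRF2 target, went from 125 to 285 RPKM in Apoe-/- group means from untreated to oxLDL 60, and the lipid droplet gene Hilpda from 4.08 to 16.2 RPKM. Of the other 9 genes, Atf4 ranked highest at position 71 (r = 0.964), followed by Trib3 at 76 and Chac1 at 103, while Ddit4 stood at 3933 (r = 0.279). The genes nearest to Asns were Aldh18a1, Gars and Mthfd2, those nearest to Trib3 were Cars, Ifrd1 and Eaf1, and those nearest to Chac1 were Trib3, Pck2 and Cars, with r from 0.973 to 0.992. Atf3 and Ppp1r15a were among the nearest of each other (r = 0.978), both with Impact, joined by Aph1c for Atf3 and by Ubap1 for Ppp1r15a. Atf4 was nearest to Suco, Eif4ebp1 and Man1a2, Ddit3 to Hax1, Trim35 and Rhbdd1, and Sesn2 to Arl14ep, Letmd1 and Rassf8 (r from 0.944 to 0.992). Ddit4 had no close neighbour by this measure, and its nearest genes were Tubb2b, Col3a1 and Col5a2 at 0.779, 0.758 and 0.734.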

How the data were processed

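RNA from 18 BMDM libraries was measured by RNA sequencing. Per the labels and methods, the authors aligned reads to mm10 with STAR (version not given in the sources used here) and deposited values as RPKM (scaled for gene length and depth) in a single table. The libraries were stranded per the labels, and the methods name a workflow with RnaSeqC and Subread after STAR. Which of these tools produced the RPKM, with which annotation and strand setting, is not given in the sources used here. Since RPKM are not counts, log2(RPKM + 0.1) was fitted with limma 3.58.1 in R 4.3.3, using 6 group means over all 18 libraries (lmFit, eBayes with trend). Testing required 0.1 RPKM or more in any 3 libraries, which 12838 of 18668 genes met. Benjamini-Hochberg adjustment was made separately in the 11 comparisons, and a call needed adjusted p under 0.05 and 1.4-fold. Fold changes of low genes are understated by the pseudocount. For each gene 1 estimate of the spread between replicates, pooled over all 6 groups, served every comparison. A p-value within Apoe-/- thus also reflects the spread of DKO replicates, and the reverse. Comparisons also share groups.

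Depth was recovered from the steps of 1 read in low values, of which 93.7% of 10850 lay within 0.05 of a whole number, against 10% by chance; counting errors cover counting alone. Pairing was checked by correlating deviations from group means across genes: all 18 pairs with the same number within a genotype gave r from 0.18 to 0.70. The median was -0.35 for other numbers, but deviations sum to 0 in a group, so this is no independent comparison. Between genotypes the medians were -0.17 for the same number and 0.13 for other numbers. The part of the Xist-positive libraries in this was not tested. The number was therefore used as a block within genotypes. The 10 genes, the gene lists and the alternatives were chosen with earlier results of these data known. From each list, up to 3 genes called higher and 3 called lower at oxLDL 60 in Apoe-/- with a mean of at least 0.5 RPKM are named, with their values in DKO, beside paralogs, kinases and partners named whatever their call. Fits were tested on simulated data. Python 3.11.15 with pandas 2.3.3, numpy 2.4.6, scipy 1.17.1 and matplotlib 3.10.9 served for depth, sequences and plots.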

Additional observations from a re-analysis of the deposited data

How the results depend on the processing

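Calls at oxLDL 60 against untreated held best: 9 of 10 genes in both genotypes under rescaling by the median ratio, the term for Xist-positive libraries, their omission and the replicate block, and 9 to 9 (Apoe-/-) and 7 to 9 (DKO) on leaving out 1 library, where Gdf15 ranged from 3.67 to 3.99 and from 3.18 to 4.04. Beyond these, DKO Sesn2 was lost at pseudocount 1 (0.43, under 1.4-fold) and DKO Asns with no filter on low values (adjusted p = 0.0688). The low reads of Ddit4 and Chac1 limit their precision. Where values below changed, the cause was not tested.

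Counts moved with the treatment of replicates. For oxLDL 10 in Apoe-/-, against 0 as reported, 1 gene was called with a 1 RPKM filter, 1 when the fit held just the 2 groups at issue, 2 with the Xist term, 2 without the Xist-positive libraries and 2 with the replicate block; in DKO the last 3 gave 3, 3 and 3, and leaving out 1 library gave 0 to 2. Between genotypes, the Xist term gave 3 genes untreated and 2 at oxLDL 10, and omission gave 4, 4 and 2 at the 3 amounts; the replicate block gave 0 at each, although numbers do not pair samples between genotypes.

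Only uncalled differences changed sign. Without the Xist-positive libraries these were Ddit4 at oxLDL 60 in Apoe-/- (-0.038), the untreated genotype differences of Atf3 (0.056), Ddit4 (-0.25) and Ppp1r15a (0.070), that of Atf4 at oxLDL 60 (0.056), and the interactions of Chac1 at oxLDL 60 (-0.17) and of Gdf15 (0.038), Trib3 (-0.045) and Sesn2 (0.11) at oxLDL 10. Rescaling reversed the genotype differences of untreated Ddit4 (-0.012) and of Atf4 at oxLDL 60 (0.028) and the interactions of Gdf15 at oxLDL 60 (0.019) and Asns at oxLDL 10 (0.042), pseudocount 0.01 that of Chac1 at oxLDL 60 (-0.0093), and pseudocount 1 that of Gdf15 at oxLDL 10 (0.032).

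On leaving out 1 library, sign changes gave these ranges. For oxLDL 10 against untreated, Asns ran from -0.062 to 0.37 in Apoe-/- and -0.13 to 0.36 in DKO, Ddit4 from -0.46 to 0.20 in Apoe-/- and Sesn2 from -0.042 to 0.14 in DKO. Ddit4 in Apoe-/- ran from -0.30 to 0.38 for oxLDL 60 against untreated and -0.10 to 0.42 against oxLDL 10. Untreated genotype differences were -0.20 to 0.087 for Atf3, -0.33 to 0.33 for Ddit4 and -0.15 to 0.075 for Ppp1r15a, and those at oxLDL 60 were -0.054 to 0.067 for Atf4, -0.11 to 0.41 for Ddit4 and -0.0030 to 0.18 for Sesn2. Interactions at oxLDL 60 were -0.023 to 0.26 for Atf3, -0.37 to 0.27 for Chac1, -0.46 to 7.3e-05 for Ddit3, -0.19 to 0.48 for Ddit4 and -0.60 to 0.26 for Gdf15. Those at oxLDL 10 were -0.27 to 0.25 for Asns, -0.021 to 0.12 for Atf4, -0.18 to 0.46 for Chac1, -0.20 to 0.33 for Ddit3, -0.57 to 0.095 for Ddit4, -0.54 to 0.54 for Gdf15, -0.19 to 0.013 for Sesn2 and -0.18 to 0.49 for Trib3.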
